A study of Homo sapiens with 9 samples.

Results

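The Ena/VASP proteins ENAH, VASP and EVL, the profilins PFN1 and PFN2, and the binding partners ZYX, LPP, TES, RAPH1 and APBB1IP were followed by their gene symbols in a table of 16630 genes from H1650 cells. All 10 genes were present, had a value in each of 9 libraries and passed the filter on low values, a mean of 0.5 FPKM (fragments counted per gene, scaled by transcript length and by library depth). H1650 is an established human line of non-small cell lung cancer. The 3 groups, with 3 libraries each, differed in the siRNA transfected at 20 nM with Lipofectamine RNAiMAX: a nontargeting pool (control), a pool against all ENAH transcripts (siMENA), or a mix of 3 siRNAs within exon 11a of ENAH (siMENA11a). RNA was taken on day 3 and depleted of ribosomal RNA. All groups share the cell line and the transfection reagent, and all control cells received the nontargeting pool. The series' design text speaks of biological replicates of this 1 line; nothing more is said of separate cultures, so p-values measure the spread between these libraries.

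Ena/VASP proteins sit at the growing barbed ends of actin filaments, keep capping proteins away and pass on actin monomers that profilin delivers. Their EVH1 domain docks on proline-rich motifs of adhesion and membrane proteins, among them zyxin, LPP and the adaptors lamellipodin (RAPH1) and RIAM (APBB1IP). Testin (TES) instead binds the EVH1 domain of ENAH through a LIM domain. In epithelial cells ENAH is spliced with the short exon 11a, giving the isoform hMENA11a, which is lost in cells of mesenchymal character.

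Exon 11a is shown because it is the stretch that the siMENA11a siRNAs match. In the GENCODE v29 annotation it lies at chr1:225504991-225505053 (GRCh38), minus strand, is a 63-base exon and belongs to 2 of 9 annotated ENAH transcripts. The deposited values were made on hg19, so coordinates here serve only to locate sequence. Capitals mark where the overlapping 7-base words CCAAGGA and CAAGGAA fall in it.

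ENAH exon 11a: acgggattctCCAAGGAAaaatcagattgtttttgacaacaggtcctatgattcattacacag

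FPKM sums per library ran from 558754 to 592930. The table holds no read counts, so total depth is unknown. Relative depth was judged from the most common ratio of control replicate 1 to each library, over genes with low FPKM values in both. By this estimate control replicate 1 was the shallowest library, and the deepest had 1.58 times its depth. Epithelial markers were abundant: the summed FPKM of EPCAM, CDH1, KRT7, KRT8, KRT18 and KRT19 was 4820 to 5135 in control, 4693 to 4893 in siMENA and 3939 to 4425 in siMENA11a. Of 6 fibroblast, 6 leukocyte and 4 endothelial markers, 3, 1 and 3 had values, with summed FPKM per library of at most 3.79, 7.21 and 0.491, and PTPRC, CD3E, PDGFRB, LUM, DCN and KDR were not analysed here. The leukocyte value was CD14 alone. The lung surfactant gene SFTPB averaged 0.188 FPKM, and the lung lineage markers NKX2-1 and NAPSA were not analysed here. In bulk RNA, fewer cells of a type and less RNA per cell cannot be told apart. The epithelial sum is weighted to its most abundant markers: KRT8 averaged 1446 FPKM and the lowest of the 6 averaged 151 FPKM. By limma at an adjusted p under 0.05, 3 of the 6 were lower under siMENA11a than in control, beside 11.3% of all genes, and 3 did not pass. Against siMENA 1 was higher, beside 14.4%, 3 were lower, beside 22.2%, and 2 did not pass. The lower epithelial sum of the siMENA11a libraries accompanies every comparison with that group, and its part in the results was not tested.

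The 10 genes covered a wide range of levels in control cells. PFN1 was highest with a mean of 765 FPKM, followed by PFN2 (177 FPKM), VASP (86.9 FPKM), TES (44.1 FPKM), ENAH (27.4 FPKM), ZYX (10.96 FPKM) and LPP (7.995 FPKM), and none of these overlapped its neighbour in that order. RAPH1 (3.90 FPKM), EVL (3.73 FPKM) and APBB1IP (3.29 FPKM) were lowest, and neighbours among these 3 overlapped. The rank of ENAH went from 5 of 10 in control to 7 under siMENA, where its libraries overlapped those of its neighbours LPP and EVL. Its rank under siMENA11a was 6, with libraries that overlapped those of ZYX.

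**Figure D1:**
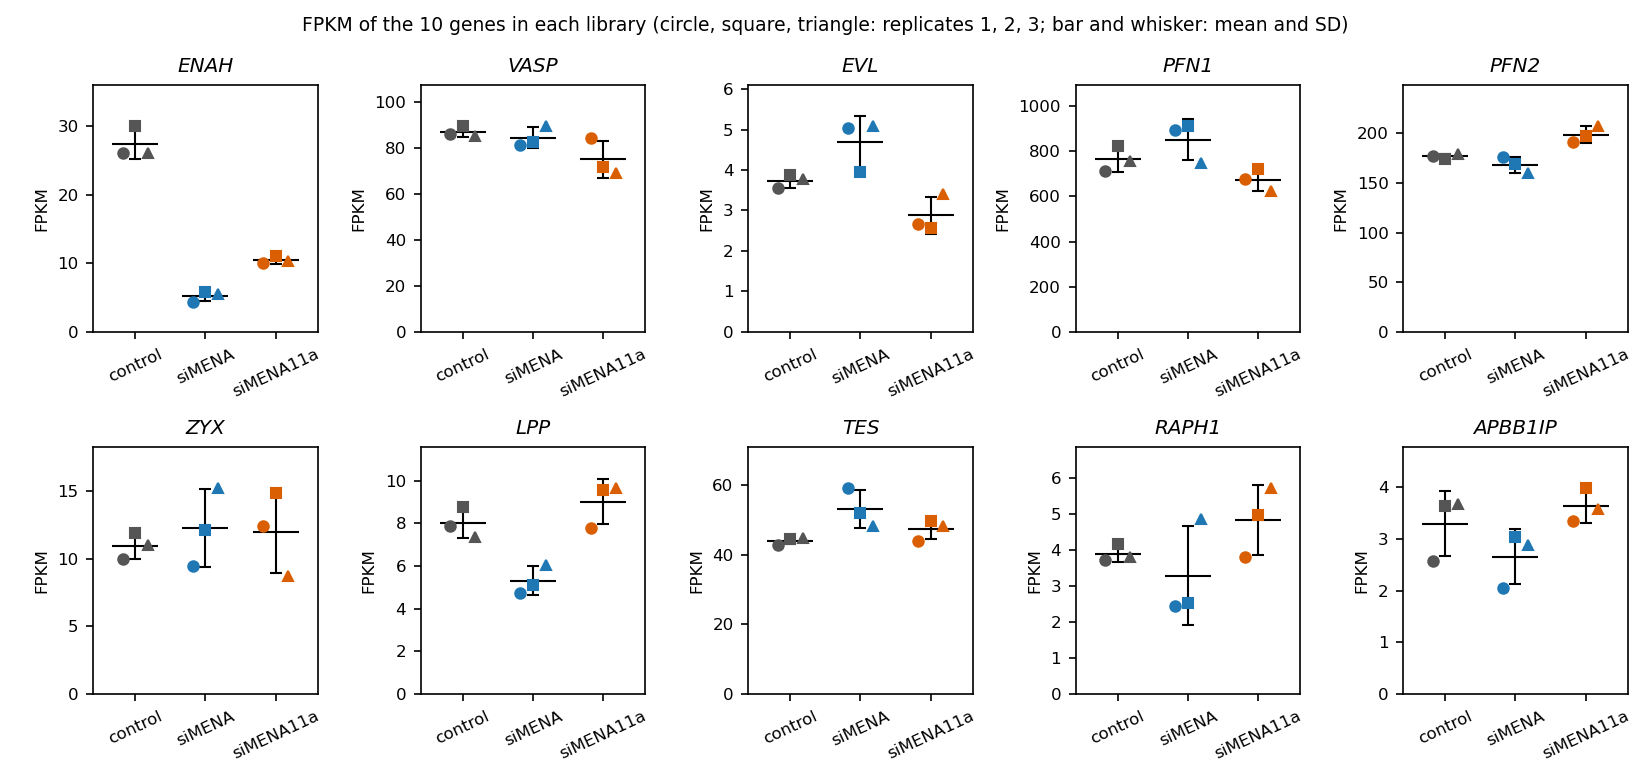
FPKM (y axes, from 0, a separate scale per gene) of the 10 genes in each library of the control, siMENA and siMENA11a groups; circles, squares and triangles are replicates 1, 2 and 3, and the bar and whisker give the mean and SD (n = 3). ENAH separates the 3 groups, LPP is lowest in the siMENA libraries, and ZYX overlaps across all groups.

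ENAH (chr1:225486835-225653142, GRCh38, minus strand), the targeted gene, measured 26.1, 30.04 and 26.1 FPKM in control replicates 1 to 3, 4.43, 5.79 and 5.57 FPKM under siMENA, and 9.98, 11.0 and 10.3 FPKM under siMENA11a. No library of one group overlapped another group. By limma on log2(FPKM + 1), with p-values adjusted over 13273 genes, ENAH fell by 2.18 (SE 0.09, adjusted p 6.41e-06) under siMENA and fell by 1.31 (SE 0.09, adjusted p 6.29e-05) under siMENA11a. It was 0.87 higher under siMENA11a than under siMENA (SE 0.09, adjusted p 0.000112). The siMENA change was larger in size than that of 99.9% of all genes tested. The values are per gene and do not separate transcripts with and without exon 11a.

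VASP (chr19:45506579-45526983, plus strand), the paralog first found as a kinase substrate in platelets, was the most abundant Ena/VASP gene. It measured 86.02, 89.4 and 85.4 FPKM in control, 81.4, 82.4 and 89.7 FPKM under siMENA, and 84.3, 71.9 and 69.4 FPKM under siMENA11a. The siMENA libraries overlapped control, and the 3 siMENA11a libraries lay below every control library, replicate 1 by little. Neither difference passed: the log2 fold change was -0.04 (95% interval -0.21 to 0.12, limma adjusted p 0.738) under siMENA and -0.21 (-0.38 to -0.05, adjusted p 0.0733) under siMENA11a. Without siMENA11a replicate 1 the latter was -0.30 and passed (adjusted p 0.0181, within 0.0181 to 0.194 over 18 alternatives), and so did siMENA11a against siMENA at -0.25 (adjusted p 0.0162, within 0.0162 to 0.281; -0.17 and 0.1 with all libraries).

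EVL (chr14:99971449-100144236, plus strand), the paralog best known from blood and nerve cells, was low in H1650. Control libraries held 3.55, 3.87 and 3.78 FPKM, siMENA libraries 5.03, 3.95 and 5.09 FPKM, and siMENA11a libraries 2.66, 2.58 and 3.399 FPKM. Every siMENA library was above and every siMENA11a library below every control library. The difference from control passed in neither group (log2 fold change 0.26, 95% interval 0.02 to 0.50, adjusted p 0.118 under siMENA; -0.29, -0.53 to -0.05, adjusted p 0.084 under siMENA11a). Tested directly by limma, EVL was lower under siMENA11a than under siMENA by a log2 fold change of -0.55 (SE 0.11, adjusted p 0.00314), a call kept in all 18 alternatives (0.00198 to 0.0159). Under siMENA11a against control EVL passed in 2 of 18 alternatives, among them the fit without siMENA11a replicate 3 (-0.39, adjusted p 0.0373, within 0.0373 to 0.208).

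Because FPKM is scaled by length, the 3 paralogs can be added. Their sum was 118.1 ± 4.5 FPKM (SD, n = 3) in control, 94.5 ± 5.2 FPKM under siMENA and 88.5 ± 7.4 FPKM under siMENA11a. ENAH supplied 23.2% ± 1.0 of the sum in control, 5.57% ± 0.71 under siMENA and 11.9% ± 1.4 under siMENA11a. VASP supplied 73.7% ± 1.0, 89.5% ± 0.1 and 84.9% ± 1.8. The sums of both siRNA groups overlapped each other, and both lay below every control library. The ratio of VASP to ENAH was 3.18 ± 0.18 in control, 16.2 ± 2.1 under siMENA and 7.24 ± 1.05 under siMENA11a. A lower value of the targeted ENAH raises the VASP share and this ratio by arithmetic. VASP itself averaged 86.9 FPKM in control, 84.5 FPKM under siMENA and 75.2 FPKM under siMENA11a. These sums and shares are descriptions, with no test.

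**Figure D2:**
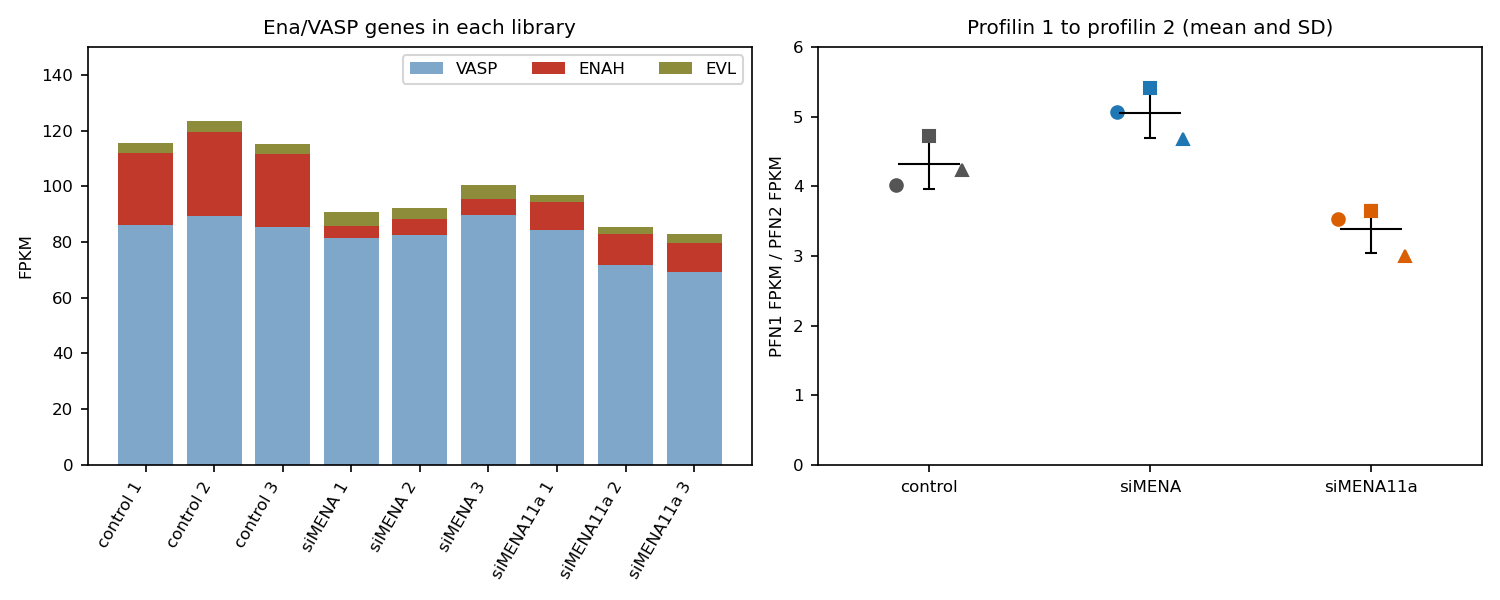
Left, FPKM of VASP, ENAH and EVL stacked for each of the 9 libraries; right, the ratio of PFN1 to PFN2 FPKM in each library with the mean and SD (n = 3; circles, squares and triangles are replicates 1, 2 and 3). VASP makes up most of each bar (72.5% to 89.6%), and the siMENA11a ratios lie below all others.

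The profilins bind actin monomers and feed them to Ena/VASP proteins and formins; PFN1 is the widespread form and PFN2 the one prominent in brain. PFN1 (chr17:4945652-4949061, minus strand) measured 712, 823 and 759 FPKM in control, 893, 913 and 748 FPKM under siMENA, and 675, 720 and 623 FPKM under siMENA11a. The siMENA and siMENA11a groups did not overlap each other, and each overlapped control. Neither group passed against control (log2 fold change 0.15, 95% interval -0.07 to 0.37, and -0.19, -0.41 to 0.04). Between the siRNA groups PFN1 was lower under siMENA11a by limma (-0.34, SE 0.10, adjusted p 0.0246). That call ended with quantile normalization (adjusted p 0.054) and without siMENA replicate 1 (0.0858), siMENA replicate 2 (0.0905), siMENA11a replicate 1 (0.0626) or siMENA11a replicate 3 (0.074), within 0.0102 to 0.0905 over 18 alternatives. GENCODE v29 lists 10 PFN1 pseudogenes and places ENO3 across PFN1 on the other strand, so the PFN1 level is uncertain.

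PFN2 (chr3:149964904-150050788, minus strand) measured 177, 174 and 179 FPKM in control, 176, 169 and 160 FPKM under siMENA, and 191, 197 and 208 FPKM under siMENA11a. All siMENA11a libraries were above all others, and siMENA overlapped control. Under siMENA11a the log2 fold change was 0.17 against control (95% interval 0.04 to 0.29, adjusted p 0.0654), which did not pass, except with quantile normalization (0.21, adjusted p 0.0181, within 0.0181 to 0.159). Against siMENA it was 0.24 (SE 0.06, limma adjusted p 0.00838), a call kept in all 18 alternatives. Both profilins therefore passed between the siRNA groups, in opposite directions. The ratio of PFN1 to PFN2 was 4.32 ± 0.36 (SD, n = 3) in control, 5.05 ± 0.37 under siMENA and 3.39 ± 0.34 under siMENA11a, and the siMENA11a libraries (3.00 to 3.65) did not overlap the others. For each profilin 8 of 9 values had to be divided by 1000, with the scale set by the 1 value deposited with its decimal point, so their levels and ratio rest on that inferred repair.

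Among the LIM-domain partners, LPP (chr3:188153284-188890671, plus strand), a zyxin relative at focal adhesions and cell contacts, changed most. It measured 7.86, 8.75 and 7.38 FPKM in control, 4.75, 5.11 and 6.07 FPKM under siMENA, and 7.80, 9.58 and 9.65 FPKM under siMENA11a. All siMENA libraries were below all other libraries, whereas siMENA11a overlapped control. LPP fell under siMENA by 0.51 on the log2 scale (SE 0.10, limma adjusted p 0.00867), to 66.4% of the control mean. It was 0.67 higher under siMENA11a than under siMENA (SE 0.10, adjusted p 0.000966), and both calls were kept in all 18 alternatives. Under siMENA11a against control the log2 fold change was 0.15 (95% interval -0.08 to 0.38, adjusted p 0.343).

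ZYX (chr7:143381080-143391111, plus strand), zyxin, which brings ENAH and VASP to focal adhesions, showed the widest overlap. It measured 9.94, 11.9 and 11.01 FPKM in control, 9.44, 12.1 and 15.2 FPKM under siMENA, and 12.4, 14.8 and 8.73 FPKM under siMENA11a. The ranges of both siRNA groups enclosed the control range. Its log2 fold changes of 0.13 (95% interval -0.29 to 0.54) and 0.09 (-0.32 to 0.51) did not pass (limma adjusted p 0.672 and 0.769). The interval under siMENA reaches 0.54, so a rise as large as the fall of LPP would lie within it.

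TES (chr7:116210493-116258783, plus strand), testin, measured 42.8, 44.7 and 44.8 FPKM in control, 59.2, 52.1 and 48.3 FPKM under siMENA, and 44.02, 49.6 and 48.4 FPKM under siMENA11a. All siMENA libraries were above all control libraries, and replicate 1 was highest. TES rose under siMENA by a log2 fold change of 0.26 (SE 0.08, limma adjusted p 0.0382), but the call was fragile. It ended with median-ratio scaling (adjusted p 0.0653), without the mean-variance trend (0.0545), on leaving out any 1 control library (0.111, 0.0736 and 0.0872 for replicates 1 to 3), and without siMENA replicate 1 (0.125) or 2 (0.0793), within 0.0215 to 0.125 over 18 alternatives. Under siMENA11a TES did not pass (0.10, adjusted p 0.395). Between the siRNA groups it passed only without siMENA replicate 3 among the alternatives (-0.23, adjusted p 0.0449, within 0.0449 to 0.392; -0.16 and 0.12 with all libraries).

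RAPH1 and APBB1IP belong to 1 family of adaptors that link small GTPases to Ena/VASP proteins, RAPH1 at the leading edge and APBB1IP from Rap1 to talin and integrins. RAPH1 (chr2:203394345-203535410, minus strand) measured 3.74, 4.16 and 3.82 FPKM in control, 2.46, 2.52 and 4.87 FPKM under siMENA, and 3.798, 4.99 and 5.73 FPKM under siMENA11a. In the siMENA group, replicates 1 and 2 were below every control library and replicate 3 above every control library. No comparison passed with all libraries (log2 fold change -0.24, adjusted p 0.424 under siMENA; 0.24, 0.428 under siMENA11a; 0.48, 0.0792 between the siRNA groups). Without siMENA replicate 3, limma gave -0.49 under siMENA (adjusted p 0.0388, within 0.0388 to 0.776) and 0.73 between the siRNA groups (0.00387, within 0.00387 to 0.243), the latter passing in 2 of 18 alternatives. Replicate 3 was also the siMENA library farthest from its group in 5 of the 10 genes, replicate 1 in 4 and replicate 2 in 1. RAPH1 overlaps ABI2 on the other strand. EVL, PFN1, PFN2, ZYX, LPP and TES also overlap an opposite-strand gene in GENCODE v29, and whether strand was used in counting is not given in the sources used here.

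APBB1IP (chr10:26438203-26567803, plus strand), best known from blood cells, was present at 2.56, 3.64 and 3.68 FPKM in control, 2.05, 3.03 and 2.88 FPKM under siMENA, and 3.34, 3.98 and 3.57 FPKM under siMENA11a. The siRNA groups did not overlap each other, and both overlapped control. Its log2 fold changes were -0.23 (95% interval -0.53 to 0.07) and 0.12 (-0.18 to 0.42) against control and 0.35 (0.05 to 0.65, adjusted p 0.0666) between the siRNA groups, none of which passed. The last one passed in 4 of 18 alternatives, among them median-ratio scaling (adjusted p 0.0447), quantile normalization (0.0416) and the fit without control replicate 1 (0.0394), within 0.00916 to 0.225.

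**Figure D3:**
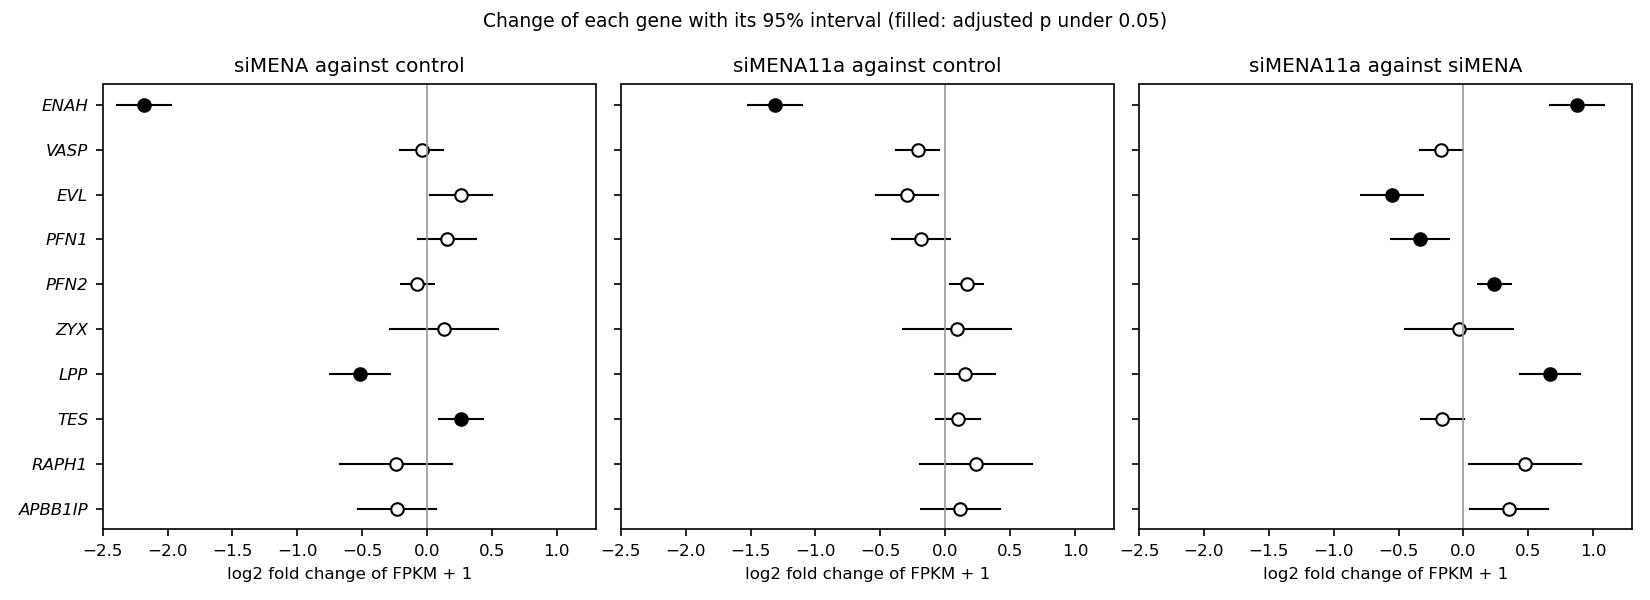
Log2 fold change of FPKM + 1 (x axis) of the 10 genes in the 3 comparisons, with the 95% interval from limma; filled points have an adjusted p under 0.05. Beside ENAH, LPP (-0.51) and TES (0.26) passed under siMENA, no other gene under siMENA11a, and EVL, PFN1, PFN2 and LPP between the siRNA groups.

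Counted together, 3 of 10 genes passed under siMENA, where 18.6% of all genes tested passed. ENAH and LPP fell, beside 8.24% of all genes, and TES rose, beside 10.3%. Under siMENA11a 1 of 10 passed, against 19.5% of all genes: ENAH fell, beside 11.3% of all genes, and none rose, beside 8.16%. Between the siRNA groups 5 of 10 passed, against 36.6%. ENAH, PFN2 and LPP were higher under siMENA11a, beside 14.4% of all genes, and EVL and PFN1 were lower, beside 22.2%. Groups did not overlap for 4, 4 and 6 of the 10 genes, where 40.1%, 36.7% and 47.8% of all genes did not. The moderated F test over the 3 groups passed for 5, ENAH, EVL, PFN2, LPP and TES, against 40.3%. With the targeted ENAH set aside, 2, 0 and 4 of 9 passed. The median log2 fold change of these 9 was -0.04, 0.10 and -0.03, beside 0.04, -0.01 and -0.05 over all genes. Both comparisons with control share the control libraries.

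The sequences below are shown because ENAH, LPP and VASP each hold the same 8 letters in the annotated 3' UTR, and because LPP also holds the letters marked in exon 11a. ENAH is itself the targeted gene, and whether any of these words bears on a change was not tested. The words CAGAATA and AGAATAA, and CCAAGGA and CAAGGAA, came from an earlier look at the genes that fell in these same comparisons, so they are no independent evidence. Each was searched on the transcript's strand in the longest GENCODE v29 3' UTR per gene; the words of a pair overlap, and capitals mark them.

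LPP, chr3:188889539-188889560 (GRCh38), plus strand: cctttatCCAAGGAAgctcttg

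LPP, chr3:188881760-188881781 (GRCh38), plus strand: tcttcttCAGAATAAgacattt

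ENAH, chr1:225488087-225488108 (GRCh38), minus strand: ttggggtCAGAATAAgcatgtg

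VASP, chr19:45526950-45526971 (GRCh38), plus strand: gcccctgCAGAATAAatctgcc

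An exon 11a word was found in the 3' UTR of 2 of the 10 genes, LPP at 4 places and RAPH1 at 2, and in 24.4% of 11361 tested genes with an annotated 3' UTR. CAGAATA or AGAATAA was found in 4 of 10, LPP and RAPH1 at 6 places each, ENAH at 2 and VASP at 1, and in 26.8% of all genes. Length differs widely, with 16192 bases in LPP, 10940 in ENAH, 5755 in RAPH1 and 806 in VASP. Of the 33 genes whose 3' UTR is within 1.2-fold of LPP's length, 87.9% hold an exon 11a word and 90.9% hold CAGAATA or AGAATAA. For RAPH1's length the shares are 57.6% and 66.7%, and CAGAATA or AGAATAA is held by 83.7% of genes of ENAH's length and by 12.7% of genes of VASP's. In EVL, PFN1, PFN2, ZYX, TES and APBB1IP none of the 4 words is in this window. LPP and RAPH1 thus hold words that most genes of their length hold, and so does ENAH for CAGAATA or AGAATAA. In VASP the word starts at base 780 of the 806, near the end of the 3' UTR, and its part was not tested.

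The genes with the pattern most like each gene that passed the F test were taken as those with the highest Pearson correlation of log2(FPKM + 1) over the 9 libraries, among 13263 other genes. For ENAH they included PNP, a purine nucleoside phosphorylase (r = 0.993), and CALU, a calcium-binding protein of the secretory pathway (0.98). PNP averaged 11.4 FPKM in control, 6.48 under siMENA and 8.11 under siMENA11a. For LPP they were TBC1D9 (0.981), the metal-responsive factor MTF1 (0.975) and PURB (0.973), for EVL TFB2M (0.972), MDH1 (0.97) and NAB1 (0.965), for PFN2 C4orf33 (0.978), COPZ1 (0.973) and CEBPA (0.971), and for TES RPAP3 (0.968), SIRT7 (0.961) and ACTR3, the Arp3 subunit of the branching Arp2/3 complex (0.96). The 9 points share 3 group means, and the genes are the top of a long ranking, so these values are descriptions.

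Further genes of actin assembly at adhesions were described in 6 lists of 86 genes, of which 74 were tested. Under siMENA 12 rose, 5 fell and 57 did not pass (23.0% passing, beside 18.6% of all genes). Under siMENA11a 7 rose, 10 fell and 57 did not pass (23.0%, beside 19.5%), and between the siRNA groups 10 were higher and 24 lower under siMENA11a (45.9%, beside 36.6%). Of all genes, 10.3% rose and 8.24% fell under siMENA, and 8.16% rose and 11.3% fell under siMENA11a. The counts per list given below stand beside these shares. In the comparison between the siRNA groups, 14.4% of all genes were higher and 22.2% lower under siMENA11a. There the lists gave 11 higher and 20 lower with median-ratio scaling as with quantile normalization. The higher share of passing list genes went from 29.4% to 35.5% with either. That of all passing genes went from 39.4% to 49.9% and 49.1%. The medians were 0.06, -0.04 and -0.13, beside 0.04, -0.01 and -0.05 over all genes.

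**Figure D4:**
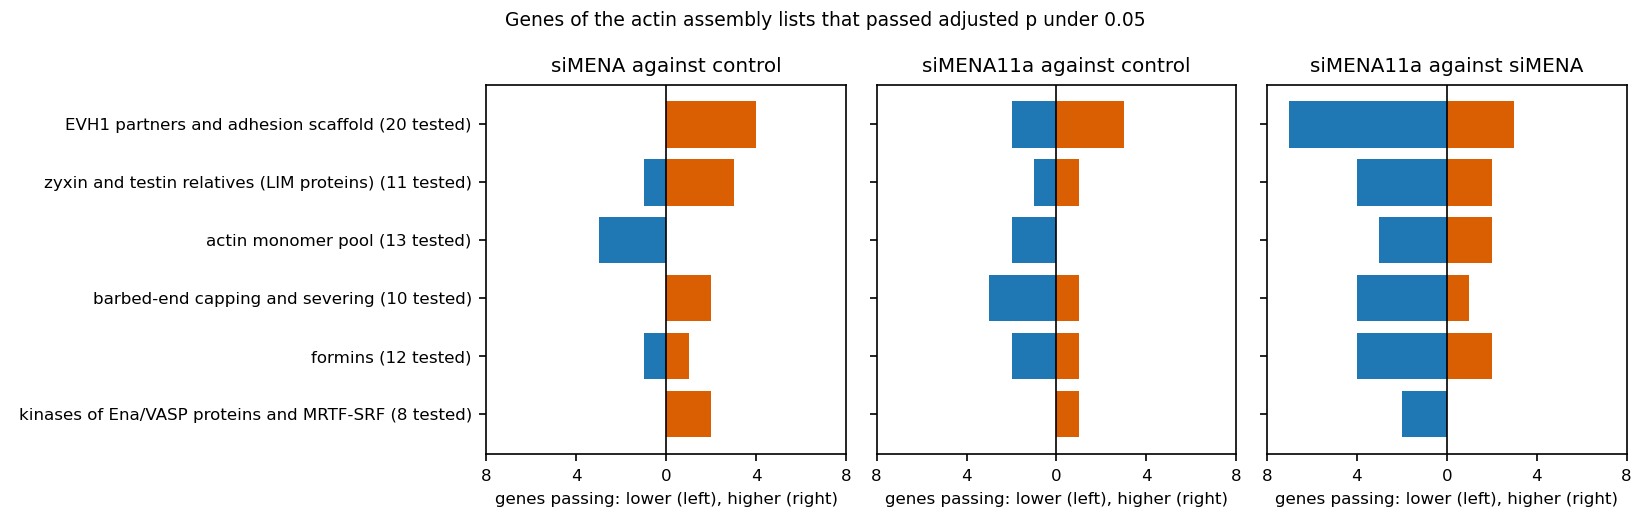
Number of genes (x axis) of each of 6 actin assembly lists that passed limma's adjusted p under 0.05, lower to the left in blue and higher to the right in orange, in the 3 comparisons. Of the 20 adhesion genes tested 4 were higher and 0 lower under siMENA, and 3 were higher and 7 lower under siMENA11a than under siMENA. Of all genes tested, 10.3% were higher and 8.24% lower under siMENA, and 14.4% were higher and 22.2% lower under siMENA11a than under siMENA.

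Of 20 EVH1 partners and adhesion scaffold genes, 4 rose and none fell under siMENA, and 3 rose and 2 fell under siMENA11a. FERMT1, the epithelial kindlin that activates integrins, rose from 4.29 ± 0.39 to 6.96 ± 0.31 FPKM under siMENA (log2 fold change 0.59, limma adjusted p 0.000894). PARVB, which joins integrin-linked kinase to actin, fell from 6.03 ± 0.26 to 4.16 ± 0.33 FPKM under siMENA11a (-0.45, adjusted p 0.00297), while ROBO1, an axon guidance receptor, and FERMT2, another kindlin, rose by 0.36 and 0.33. Between the siRNA groups FERMT1, PARVB and VCL, vinculin, were lower under siMENA11a (-0.85, -0.73 and -0.44). These calls were kept in every alternative that gave a value. Under siMENA PARVB (0.29) and the small GTPase gene RAP1B (0.28) also rose, and both lost the call without siMENA replicate 1 or 2 or control replicate 1, with adjusted p up to 0.0857 and 0.101. PARVB also lost it with quantile normalization or without control replicate 2, and RAP1B without control replicate 3.

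Of 11 relatives of zyxin and testin, 3 rose and 1 fell under siMENA. TRIP6, of the same LIM family as zyxin and LPP, rose from 24.7 ± 2.2 to 36.3 ± 3.6 FPKM (log2 fold change 0.54, limma adjusted p 0.00331), and WTIP rose by 0.31, both in all alternatives that gave a value. LMCD1 rose by 0.47, a call lost without siMENA replicate 1 or 2 (adjusted p up to 0.0578), and was lower under siMENA11a than under siMENA (-0.57). Under siMENA11a 1 rose and 1 fell, PRICKLE2 (0.41) and FBLIM1 (-0.39), which links filamins and kindlins at adhesions. Both lost the call in 8 of 18 alternatives, with adjusted p up to 0.134 and 0.124. Both were also called between the siRNA groups (0.45 and -0.43), where PRICKLE2 lost the call without siMENA replicate 1 and FBLIM1 without siMENA replicate 2 or siMENA11a replicate 3.

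Of 13 genes of the actin monomer pool, 3 fell and none rose under siMENA. DSTN, destrin, a filament-severing relative of cofilin, fell from 275.6 ± 19.1 to 185.3 ± 4.4 FPKM (log2 fold change -0.57, limma adjusted p 0.00034), and stood at 268.4 ± 3.6 FPKM under siMENA11a. CAP2, a cyclase-associated protein that acts on actin monomers, fell by 0.54 and TWF1, a twinfilin, fell by 0.31. Under siMENA11a 2 fell: ACTG1, the cytoplasmic gamma actin, fell by 0.32 and CFL1, cofilin, fell by 0.31. ACTG1 lost its call with quantile normalization or without control replicate 3, and CFL1 lost it without control replicate 2 or 3, with adjusted p up to 0.0541 and 0.0539. Between the siRNA groups DSTN (0.53) and TWF1 (0.43) were higher and CFL1 (-0.42) lower under siMENA11a.

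Of 10 capping and severing genes, 2 rose under siMENA, and 1 rose and 3 fell under siMENA11a. CAPZA1, a subunit of the capping protein that Ena/VASP proteins oppose, fell from 132.6 ± 4.6 to 77.5 ± 9.0 FPKM under siMENA11a (log2 fold change -0.77, limma adjusted p 0.000242). EPS8, an actin capper and bundler, rose from 16.2 ± 2.5 to 25.4 ± 3.9 FPKM (0.62, adjusted p 0.0113), and CAPG, another capper, fell by 0.35. The genes that rose under siMENA were EPS8L1 (0.55) and CAPZA2 (0.23), and both calls ended on leaving out siMENA replicate 1, siMENA replicate 2, control replicate 2 or control replicate 3, with adjusted p up to 0.0749 and 0.0758. EPS8L1 also lost its call without siMENA replicate 3. Between the siRNA groups EPS8 was higher (0.67) and EPS8L1 (-0.68) and CAPZA1 (-0.64) were lower under siMENA11a.

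Of 12 formins, which elongate filaments from profilin-bound actin, 1 rose and 1 fell under siMENA and 1 rose and 2 fell under siMENA11a. FMNL2 rose in both groups, by log2 fold changes of 0.27 and 0.28, and its siMENA call ended without control replicate 1 or 3 (limma adjusted p up to 0.0517). DAAM1 fell under siMENA (-0.32), a call lost without control replicate 3 or siMENA replicate 1 or 2, and was higher under siMENA11a than under siMENA (0.39). DIAPH3 (-0.44) and FMNL1 (-0.35) fell under siMENA11a, and both calls ended on leaving out siMENA11a replicate 1, siMENA11a replicate 3 or control replicate 2. FMNL1 also lost its call without control replicate 1, siMENA replicate 1 or siMENA replicate 2, and with only the 2 groups compared. The limma adjusted p reached 0.0727 for DIAPH3 and 0.127 for FMNL1. FMNL1 (-0.48) and DIAPH1 (-0.46) were lower under siMENA11a than under siMENA, and DIAPH1 lost the call without siMENA replicate 3 or siMENA11a replicate 1 or 3.

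Of 8 genes for kinases of Ena/VASP proteins and for factors of actin-dependent transcription, 2 rose under siMENA and 1 under siMENA11a. PRKAA1, a catalytic subunit of AMP-activated kinase, rose from 78.8 ± 1.9 to 95.1 ± 2.7 FPKM under siMENA (log2 fold change 0.27, limma adjusted p 0.00807) and to 92.2 ± 4.9 FPKM under siMENA11a (0.22, adjusted p 0.0173). The latter call ended without control replicate 1 or 2 or siMENA11a replicate 1 (adjusted p up to 0.0566). ABL1, a tyrosine kinase, rose under siMENA (0.40), a call lost in 9 of 18 alternatives (adjusted p up to 0.142), and was lower under siMENA11a than under siMENA (-0.51). SRF, which with its actin-sensing cofactors drives many cytoskeletal genes, was lower under siMENA11a than under siMENA (-0.29, adjusted p 0.00788), and it passed against control in neither group.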

How the data were processed

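Per the labels' protocols, total RNA was depleted with Ribo-Zero Gold and made into stranded libraries with read pairs. The authors deposited FPKM values for 16630 genes; per the submitters' processing notes the build was hg19, while the quantification tool is not given in the sources used here. Whole numbers that, judged from the values alone, had lost their decimal point were divided by 1000 (11524, 7.91% of the deposited values), including every value of a gene with no decimal value. They were 19 of the 90 values of the 10 genes: 8 of 9 in each of PFN1 and PFN2, and 1 each in VASP, LPP and TES. A further 1286 genes lacked a value in some library and were dropped.

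The 13273 genes that averaged 0.5 FPKM or more were fitted as log2(FPKM + 1) with limma 3.58.1 in R 4.3.3, in 1 fit over the 3 groups that modelled the mean-variance trend and left 6 residual degrees of freedom. Benjamini-Hochberg adjustment ran over all 13273 genes per comparison, and a difference passed at an adjusted p under 0.05. The scale understates changes of low genes. "Rose" and "fell" refer to differences that passed.

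The 10 genes, the lists and the tests were chosen with earlier results of these data known. Up to 3 genes most like each gene that passed the F test were named, and 1 of them is not reported here. List genes were named from the up to 3 passing genes with the largest change per list and comparison. Same-numbered libraries of control and siMENA deviated together (correlations 0.124, 0.378 and 0.196, each over 0.1), which counts as pairing by the rule used. Libraries of siMENA11a did not meet it (0.206, 0.425 and -0.0302 with control, and 0.0863, 0.309 and 0.0203 with siMENA). Some libraries of different number also exceeded 0.1, such as control replicate 1 with siMENA replicate 3 (0.113) and with siMENA11a replicate 3 (0.321). Others were negative, down to -0.425 for control replicate 1 with siMENA11a replicate 2. Deviations from a group mean cancel within the group, so some negative values are built in. The library names number control, siMENA and siMENA11a in turn within each replicate number. Whether such a set shared a culture or day is not in the labels. The main fit held no replicate block. The 18 alternatives were pseudocount 0.1, no filter, a filter of 2 FPKM, median-ratio scaling, quantile normalization, only the 2 groups compared, a replicate block, no trend, genes with a repaired value left out, and each of 9 libraries left out.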

Additional observations from a re-analysis of the deposited data

How the results depend on the processing

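Over 18 alternatives and 3 comparisons, 515 of 540 refitted log2 fold changes of the 10 genes stayed on their side of the threshold, 12 lost a call (TES under siMENA and PFN1 between the siRNA groups), 13 gained one, and no called value changed sign. With the replicate number as a block, 3149 genes passed under siMENA, 3431 under siMENA11a and 5648 between the siRNA groups, against 2463, 2583 and 4857 without it. The replicate block gave 2 passing genes of the 10 under siMENA11a (EVL, -0.29, adjusted p 0.0491) in place of 1, and between the siRNA groups it added RAPH1 (adjusted p 0.0296) and APBB1IP (0.00916); it changed no other call on the 10 genes. Quantile normalization also gave 2 under siMENA11a. With other genes that had a repaired value left out, fewer genes were tested, and 1296, 1362 and 2719 genes and 7, 8 and 18 genes of the pathway lists passed. Leaving out 1 library gave 1346 to 2902, 1493 to 2483 and 3626 to 4814 passing genes, 2 to 4, 1 to 2 and 4 to 7 of the 10, and 8 to 18, 11 to 17 and 23 to 34 of the lists. The count under siMENA dropped by over 1.5 times without siMENA replicate 1 (1346), siMENA replicate 2 (1572), control replicate 1 (1555) or control replicate 3 (1446), and that under siMENA11a without control replicate 3 (1493). Of the passing genes 55.6% were higher under siMENA (43.8% with median-ratio scaling) and 39.4% under siMENA11a against siMENA (49.9%, and 49.1% with quantile normalization). The absence of counts limits what can be said of EVL, RAPH1 and APBB1IP, whose sampling error is unknown.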
